A study of Bos taurus with 18 samples.

Results

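The 150 steadiest of the well-expressed genes in bovine blastocysts were described here, as the genes whose share of the messenger RNA varied least from pool to pool. They were chosen by their own values. Each count was divided by its library's total and given as CPM, the count per 1000000 counts of that library. Genes with a mean of at least 50 CPM over all 18 pools were ranked by the standard deviation (SD) of log2(CPM + 1), and the lowest 150 were taken. A block of 40 identifiers, taken by their numbers to hold the genes of the mitochondrial genome, and the 50 other most abundant genes had been set aside. The 150 members therefore came from 3285 genes that could be chosen, among 27270 genes listed. Because the spread over these same pools chose the members, their small spread is a description and not a finding.

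The study asked whether miR-34c, supplied to or blocked in maturing oocytes, alters the embryos that develop from them. Oocytes were taken from 2 to 4 mm follicles of slaughterhouse ovaries, matured in vitro for 22 h and fertilised with frozen-thawed bull semen. Each library came from a pool of 10 blastocysts collected 8 days post insemination, and its messenger RNA was read from the 5' end with a modified Smart-seq3xpress protocol. During maturation the oocytes received an equal volume of RNase-free water (control, n = 4 pools), miR-34c mimics (n = 5), negative control (NC) mimics (n = 3), miR-34c inhibitors (n = 3) or NC inhibitors (n = 3). All 5 groups shared the source of the oocytes, the maturation time and the day of collection. A pool mixes embryos and their cell lineages, so an embryo that differs from its pool mates cannot be seen. In such bulk samples, fewer cells of a type and less RNA per cell cannot be told apart.

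A microRNA lowers the amount or the translation of messenger RNAs that carry matching sites, and miR-34c is known from the germ line as well as from growth control. Mimics are double-stranded RNAs which act like the natural microRNA, whereas inhibitors are single strands which bind it. A blastocyst consists of the trophectoderm, which gives rise to the placenta, and the inner cell mass, which gives rise to the embryo proper. Genes that stay level across conditions are used as references in quantitative PCR, and they show how small a difference between treatments a data set is able to resolve. The identifiers in the deposited table were not paired with gene symbols in the tables used here, with 0 of the 150 members matched. Members are therefore named by their Ensembl identifiers, and their functions, the markers of the blastocyst lineages and their sequences were not analysed here.

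The libraries held between 2063863 and 4071640 counts. The pools differed from each other along a single main axis, which held 52.1% of the variance of the 10932 other genes that passed the filter on low counts. The miR-34c inhibitor pools were the most unlike each other, with a median SD within the group of 0.48 on the log2 scale over the well-expressed genes not chosen. The 3 NC inhibitor pools were the most alike, with 0.12 on the same measure. Control replicate 1 had a position of -0.23 on this axis, whereas the other control pools lay at 0.20 to 0.28. In the same way miR-34c mimic replicate 2 lay at -0.27 and the other miR-34c mimic pools at 0.11 to 0.29. The 3 NC inhibitor pools lay at -0.28 to -0.25, at the end opposite to control replicates 2 to 4, and the NC mimic pools at -0.09 to 0.05. The miR-34c inhibitor pools held both extremes, with -0.41 in replicate 1, 0.31 in replicate 2 and -0.13 in replicate 3. NC inhibitor against control therefore coincides with this axis, and the part of the axis in that comparison and in those with the miR-34c inhibitor pools was not tested. Counts that leaving out control replicate 1 moved are given without it below.

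The members covered a wide span of expression. Their mean level ran from 50.8 to 1234 CPM, with a median of 155 CPM and quartiles of 82.7 and 303 CPM. In reads, this was a mean of 151 to 3691 counts per library, and no member had fewer than 89 counts in any library. All 150 members passed the filter on low counts, which kept 11082 genes. The SD of the members ran from 0.08 to 0.16 on the log2 scale, with a median of 0.14. Over all genes that could be chosen the median SD was 0.36. On the linear scale the SD of a member was 5.30% to 11.8% of its mean CPM, with a median of 9.75%, beside 24.9% for the genes that could be chosen.

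The distance between the highest and the lowest of the 18 pools gave the same picture in folds. The highest pool of a member stood 1.2 to 1.75 times above its lowest, with a median of 1.43. For the genes that could be chosen this median was 2.40, and 1 gene reached 38. In 119 of the 150 members no pool was more than 1.5-fold above another, against 158 of all 3285 genes. No member exceeded a 2-fold range, and 999 of the 3285 genes also kept within it. The steadiest genes were therefore not the only ones with less than 2-fold variation over all pools.

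The genes next to the limit of the list had almost the same spread. ENSBTAG00000002646, the last gene inside, had an SD of 0.1603 at 226 CPM. ENSBTAG00000004059, the first gene outside, had an SD of 0.1604 at 448 CPM. The limit therefore divides a continuous distribution, as the plot of spread against level shows.

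**Figure D1:**
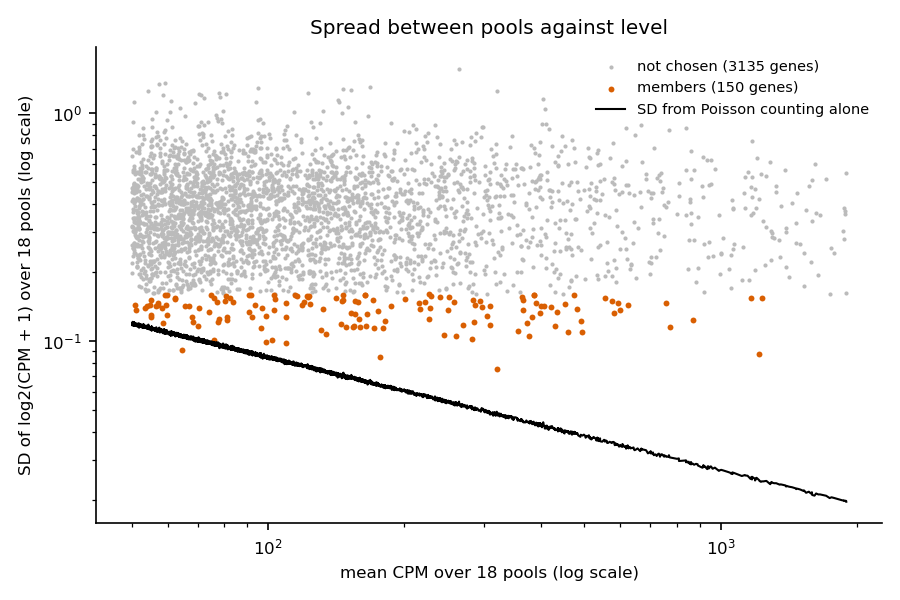
SD of log2(CPM + 1) over the 18 pools (vertical, log scale) against mean CPM (horizontal, log scale) for 150 members (orange) and 3135 well-expressed genes not chosen (grey), with the SD that Poisson counting alone gives at each level (black line). Members form the lower edge of the cloud at an SD of at most 0.16, close to the counting line near 50 CPM and well above it at high levels.

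Counting noise set part of this spread. The SD that Poisson counting alone would give at each member's level and library totals had a median of 0.07 on the log2 scale, and ran from 0.02 to 0.12. The observed SD was 0.87 to 6.38 times the counting SD, with a median ratio of 1.94, whereas the median ratio over the genes that could be chosen was 4.53. The ratio stayed under 2 in 79 of the 150 members. After the counting variance was taken off, a median SD of 0.12 remained between pools. Counting made up more than 50% of the variance in 33 members.

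A chi-square of the counts against the library totals gave the same quantity in another form. Its value per degree of freedom is near 1 where pools differ by counting alone, and its 95% limit at 17 degrees of freedom is 1.62. The members had a median of 3.69, from 0.66 to 46.8, and the genes that could be chosen had a median of 20.2. Of the 150 members, 17 lay under the limit, and these were all of the 3285 genes that did. The other 133 members were above the limit. These values come from the pools that chose the members and are a description. Whether the counts still contain repeated copies of a molecule was not tested, and this bears on how far Poisson counting describes them.

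Members of low level lay closest to counting noise. Of 1612 genes at 50 to 100 CPM, 48 were members (2.98%), with a median ratio of observed to counting SD of 1.33 and a median SD beyond counting of 0.09. Between 100 and 200 CPM, 43 of 914 genes were members (4.70%), with a ratio of 1.90 and 0.12 beyond counting. Between 200 and 400 CPM, 36 of 442 genes were members (8.14%), with a ratio of 2.76 and 0.13 beyond counting. Above these lay 23 of 317 genes (7.26%), with a ratio of 3.74 and 0.13 beyond counting. The median SD of the members was 0.14 in each of the 4 level ranges, which follows from the single limit on the SD by which they were chosen. Of the 17 members under the chi-square limit, 15 were at 50 to 100 CPM and 2 at 100 to 200 CPM.

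The steadiest gene was ENSBTAG00000014295, with an SD of 0.08. The control pools had 319, 296, 305 and 300.0 CPM. The miR-34c mimic pools had 313, 320, 333, 318 and 336 CPM, and the NC mimic pools had 319, 340 and 300.4 CPM. The miR-34c inhibitor pools had 322, 309 and 356 CPM, and the NC inhibitor pools had 321, 322 and 353 CPM. In CPM the NC inhibitor pools lay above the highest control pool, and the ranges of the other groups overlapped that of control. After TMM scaling, explained below, the NC inhibitor pools were at 291, 292 and 323 and overlapped the control pools at 296 to 334. Its observed SD was 1.58 times its counting SD.

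ENSBTAG00000003307 was the next in order, at a mean of 177 CPM and with an SD of 0.08, or 1.32 times its counting SD. Its control pools had 157, 166, 195 and 170.5 CPM, and these spanned nearly the whole range of the gene. The miR-34c mimic pools had 196, 167, 175, 180.0 and 171 CPM. The other 9 pools lay between 165 and 187 CPM, and the ranges of the 5 groups overlapped.

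ENSBTAG00000012044 combined a small SD of 0.09 with a high level of 1217 CPM. The control pools had 1312, 1299, 1308 and 1264 CPM. The miR-34c mimic pools had 1199, 1214, 1181, 1184 and 1181 CPM, all below the lowest control pool. After TMM scaling they were at 1174 to 1328 and overlapped the control pools at 1219 to 1434. The NC mimic pools had 1263, 1237 and 1284 CPM, the miR-34c inhibitor pools 1007, 1168 and 1235 CPM, and the NC inhibitor pools 1173, 1214 and 1191 CPM. Both inhibitor groups lay below every control pool in CPM, and they did so after TMM scaling as well, at 974 to 1212 and 1063 to 1103. Their differences from control did not pass the adjustment, with -0.26 (edgeR adjusted p = 0.732) for miR-34c inhibitor and -0.31 (edgeR adjusted p = 0.162) for NC inhibitor. All pools stayed within a 1.3-fold range, and the observed SD was 3.6 times the counting SD of 0.02. In the fit across all genes described below, its difference between miR-34c mimic and control was -0.12 on the log2 scale (SE 0.12, edgeR quasi-likelihood test with Benjamini-Hochberg adjusted p = 1), with a 95% interval of -0.38 to 0.13.

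ENSBTAG00000013032 was the only member, and the only one of the 3285 genes, with an SD at or below its counting SD. Its mean was 64.6 CPM, its SD 0.09 and its counting SD 0.11. The control pools had 64.3, 61.5, 65.0 and 63.5 CPM, and the miR-34c mimic pools had 62.1, 64.6, 60.7, 63.8 and 54.8 CPM. The NC mimic pools had 73.7, 65.0 and 68.3 CPM, of which the lowest was nearly equal to the highest control pool. After TMM scaling the NC mimic pools, at 64.3 to 73.0, overlapped the control pools at 59.8 to 71.2. The fifth of the lowest spreads belonged to ENSBTAG00000014230, at 109 CPM and an SD of 0.10, with pools between 96.8 and 125 CPM that overlapped between all groups.

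The extremes of level among the members behaved differently against counting noise. ENSBTAG00000020905 had the highest mean, 1234 CPM, and an SD of 0.15, which was 6.38 times its counting SD. Its NC inhibitor pools had 1311, 1494 and 1365 CPM, above the control pools at 1264, 1195, 1083 and 1123 CPM. After TMM scaling the NC inhibitor pools were at 1188 to 1359 and the control pools at 1174 to 1278, with an overlap. At the other end, ENSBTAG00000008396 had 50.8 CPM and ENSBTAG00000009732 had 51.0 CPM. Their SDs of 0.14 for each were 1.22 and 1.16 times the counting SD, so a spread like that of the most abundant member lay close to counting noise in these genes.

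**Figure D2:**
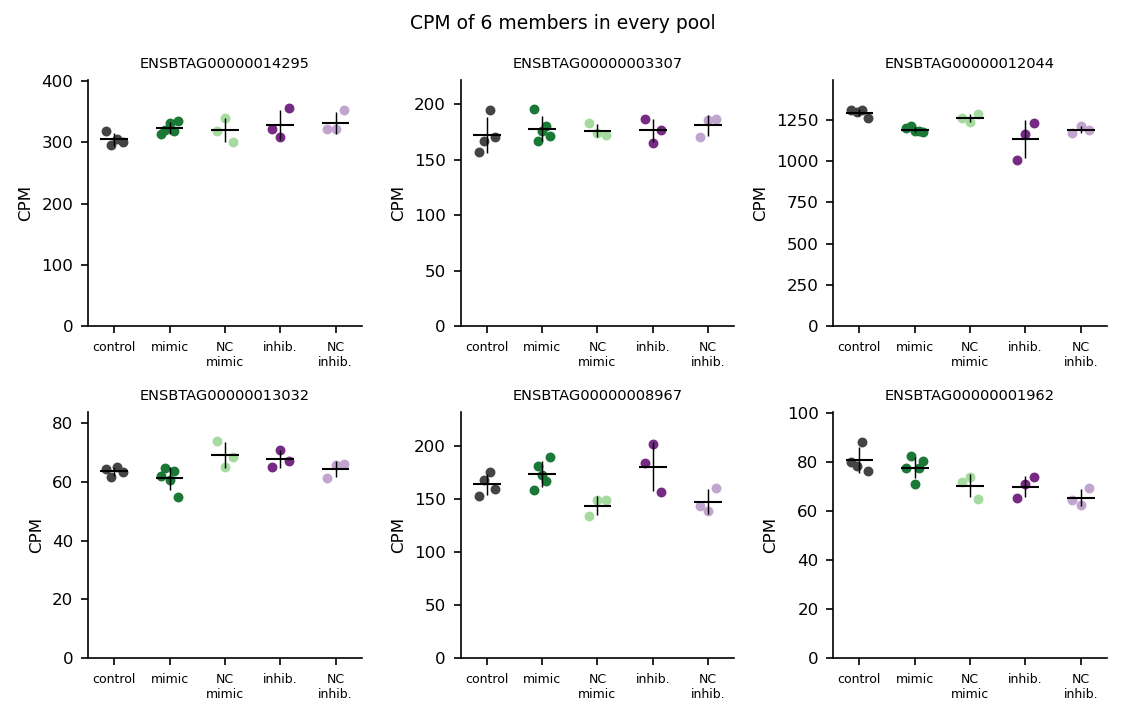
CPM (vertical, from 0) of 6 members in every pool, by treatment group (horizontal). Points are pools, horizontal bars group means and vertical bars 1 SD. The 4 steadiest genes vary within a 1.35-fold range. With TMM scaling, which is not applied in this plot, ENSBTAG00000008967 had the largest difference of the members between miR-34c mimic and NC mimic and between miR-34c inhibitor and NC inhibitor. ENSBTAG00000001962 had it between NC inhibitor and control.

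In each library the members together took a nearly fixed share of the counts, which follows from the rule that chose them on this scale. The share ran from 3.38% in control replicate 2 (95% Wilson interval 3.36 to 3.40) to 3.57% in miR-34c mimic replicate 2 (3.55 to 3.59), intervals that cover counting error only. The mean over the 18 pools was 3.47% ± 0.06 (SD, n = 18). By group the share was 3.46% ± 0.05 (SD, n = 4) in control, 3.50% ± 0.07 (SD, n = 5) with miR-34c mimics, 3.43% ± 0.01 (SD, n = 3) with NC mimics, 3.49% ± 0.06 (SD, n = 3) with miR-34c inhibitors and 3.47% ± 0.06 (SD, n = 3) with NC inhibitors. The group means differed by no more than the SD of the widest group. The geometric mean of the members was 163 to 173 CPM, with an SD of 1.67% of its mean. Near-equal group means and a steady geometric mean were fixed by the rule, so neither is a result about the treatments.

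Single libraries deviated little in the members, which also follows from the rule. The median absolute deviation of a library from each member's mean was lowest in NC mimic replicate 2, with 0.07 on the log2 scale. It was highest in miR-34c inhibitor replicate 1, with 0.12. In the well-expressed genes not chosen it ran from 0.13 in NC mimic replicate 3 to 0.47 in the same miR-34c inhibitor pool. The same pool thus deviated most in both sets of genes, at a smaller size in the members.

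**Figure D3:**
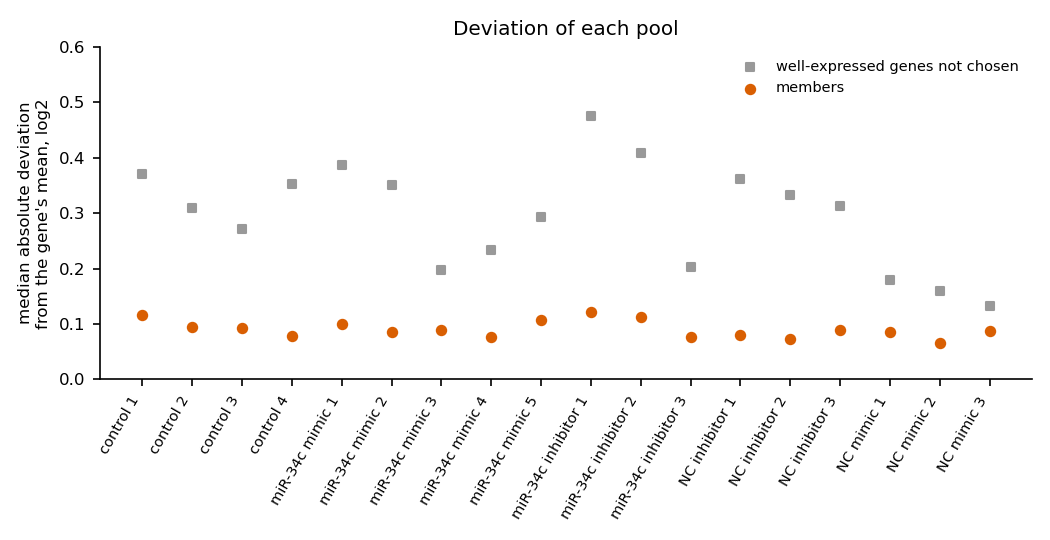
Median absolute deviation from each gene's mean (log2, vertical) in each of the 18 pools (horizontal) for members (orange circles) and well-expressed genes not chosen (grey squares). Members stay between 0.07 and 0.12 in every pool, whereas the genes not chosen range from 0.13 to 0.47.

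Within groups the median SD of the members was 0.13 in control, 0.13 with miR-34c mimics, 0.08 with NC mimics, 0.14 with miR-34c inhibitors and 0.08 with NC inhibitors. The genes not chosen had 0.37, 0.35, 0.16, 0.48 and 0.12 in the same order. The gap between members and other genes was smallest in the NC inhibitor pools, where the genes not chosen also varied least. Between pairs of pools of a group the chi-square per degree of freedom over the members was 1.75 to 2.83 in NC mimic and 1.89 to 3.83 in NC inhibitor pools. It was 3.02 to 9.40 in control, 2.78 to 9.68 in miR-34c mimic and 7.98 to 8.86 in miR-34c inhibitor pools. No pair of pools within a group agreed within sampling noise, so none of these was taken for a library deposited a second time. Pairs across groups were not compared, and the values do not show that the pools are independent.

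The share of a member's variance that lay between the 5 treatments had a median of 24.5%, from 1.1% to 68.9%. Over the genes that could be chosen the median was 31.2%. Neither share is a test, since the rule used the total of this variance.

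Along the main axis of the other genes the members moved by a median of 0.13 on the log2 scale from one end to the other, and by at most 0.39. The genes not chosen moved by a median of 0.88. Toward one end of it 81 members were higher and 69 lower, with no test. Pairs of members had a median correlation over the 18 pools of 0.02, with quartiles of -0.18 and 0.23, and all of these values share the libraries and their depth. The members' own leading axis held 17.4% of their variance and the next held 13.2%. Their leading axis ordered the 18 pools almost as the main axis of the other genes did, with an absolute correlation of 0.98, so the pattern of the other genes was also the leading one in the members, at a smaller size.

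Which genes were the steadiest depended on the scale. The trimmed mean of M-values (TMM) of edgeR replaces a library's total by one that rests on genes of similar level between libraries. Its factors ran from 0.90 in miR-34c mimic replicate 1 to 1.1 in NC inhibitor replicate 1, with group means of 0.96 in control, 0.96 with miR-34c mimics, 1.01 with NC mimics, 1.01 with miR-34c inhibitors and 1.1 with NC inhibitors. When the same rule was applied to TMM-scaled CPM, 67 of the 150 members were chosen again. With the median-of-ratios size factors of DESeq2, 65 were. On these scales the members' median SD was 0.17 with either scaling, and all 150 stayed among the steadier 50% of the genes that could be chosen, the least steady at rank 658. The geometric mean of the members then ran from 149.6 CPM in NC inhibitor replicate 1 to 184 CPM in miR-34c mimic replicate 1, with an SD of 6.53% of its mean. The rule minimised the SD on library totals, so the larger SD on the other scales is no finding. The 150 genes chosen on TMM-scaled CPM had a median SD of 0.16 on library totals.

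The spread of a library that took no part in the choice was free of the rule. Each library was left out in turn, 150 genes were chosen from the other 17, and their values in the library left out were set against their mean in the rest. The root mean square deviation had a median of 0.17 on the log2 scale, against 0.14 for the members in the same libraries. It was lowest in NC mimic replicate 2, with 0.12, and highest in control replicate 1, with 0.25. Of the 2700 values, 11 (0.41%) deviated by more than 1.5-fold, 6 of them in control replicate 1, and 0 by more than 2-fold. The same deviation was not computed for the other well-expressed genes, so how far it is particular to the steadiest genes was not tested. Of the 150 members, 114 were chosen in all 18 of these lists and 17 in 9 or fewer.

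The treatments were then compared in one edgeR quasi-likelihood fit with TMM scaling over all 11082 genes and all 18 libraries, and a 95% interval was computed for the log2 fold change of every gene. An interval inside -1 to 1 means that a 2-fold difference in either direction lay outside it, and the 1.5-fold bound was used in the same way. The 4 comparisons with control share the same control pools, and each comparison with an NC group shares its NC pools with another, so the 6 comparisons are not independent. For the fits with a library left out, given below, the shares of all genes were not computed. Their counts are therefore not results about the members. In each comparison 0 of the 150 members, and 0% of all genes, passed the thresholds of an adjusted p under 0.05 with a log2 fold change of at least 1 in size, and 0 members had an adjusted p under 0.05 at any fold. The members' median standard error was 0.14 to 0.17 on the log2 scale, beside 0.28 to 0.34 over all genes. Since low spread chose the members, short intervals follow in part from the rule. For the same reason, differences near 0 on library totals follow from the rule in every comparison. All genes include those of low counts, and of the 3285 well-expressed genes that could be chosen a larger share lay inside the bounds. In the order in which the comparisons follow, 80.1%, 65.4%, 95.3%, 71.4%, 75.3% and 52.1% of them lay inside 2-fold, and 28.5%, 23.6%, 51.1%, 24.9%, 24.7% and 19.1% inside 1.5-fold.

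**Figure D4:**
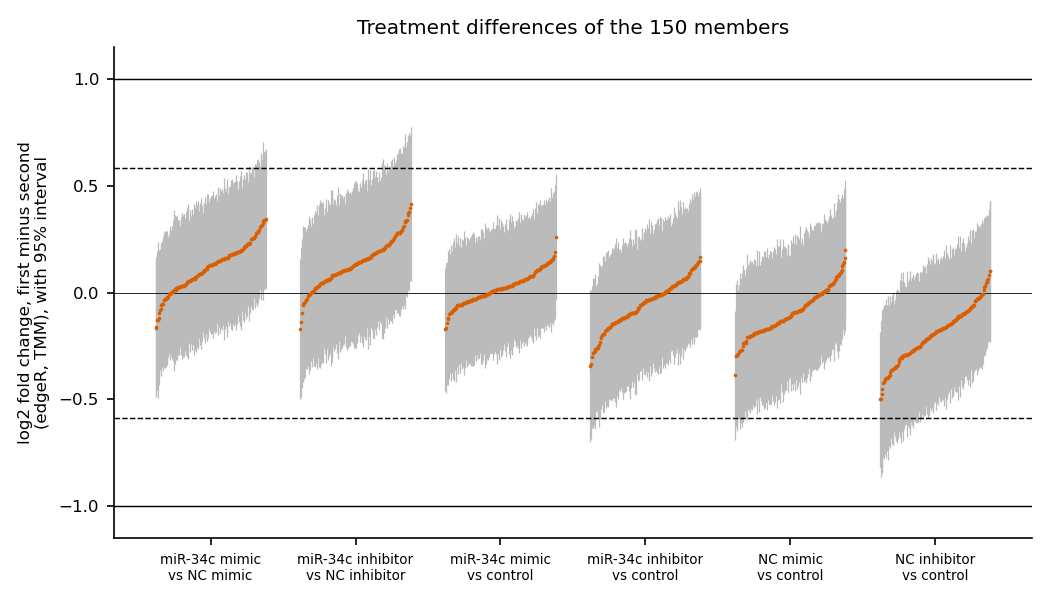
Log2 fold change (vertical, first group minus second, edgeR with TMM) of each of the 150 members in 6 comparisons (horizontal), sorted within a comparison, with 95% intervals in grey. Dashed lines mark 1.5-fold and solid lines 2-fold. No interval reaches 2-fold, and the estimates lie mostly above 0 against the NC groups and mostly below 0 for both NC groups against control, although on library totals 81 of 150 lie above 0 for NC inhibitor against control.

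The comparison of miR-34c mimic with NC mimic addresses the effect of miR-34c apart from that of adding an RNA. All 150 members had intervals inside 2-fold, against 58.4% of all genes, and 133 had intervals inside 1.5-fold, against 14.3%. The other 17 missed the 1.5-fold bound on the upper side. The median difference was 0.13 on the log2 scale, from -0.17 to 0.35, with 128 members above 0. At an unadjusted p under 0.05 there were 6 members, all higher with miR-34c mimics, with differences of 0.31 to 0.35, which is 4.00% of the members beside 7.58% of all genes. DESeq2 called 0 members at an adjusted p under 0.05, where it called 0.128% of the genes it adjusted. With library totals in place of TMM the median of the members was 0.05, with 93 of them above 0, and none had an unadjusted p under 0.05. The group means of the TMM factors were 0.96 with miR-34c mimics and 1.01 with NC mimics, and another scaling moves all members together. The balance of signs is therefore no finding. Without NC mimic replicate 1 the 6 members became 0, without NC mimic replicate 2 or 3 they became 2, and without miR-34c mimic replicate 5 they became 10.

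ENSBTAG00000008967 had the largest difference of the members here and between miR-34c inhibitor and NC inhibitor. Its miR-34c mimic pools had 158, 181, 173, 167 and 189 CPM and its NC mimic pools 134, 149 and 149 CPM, with no overlap. Its miR-34c inhibitor pools had 184, 202 and 156 CPM and its NC inhibitor pools 143, 139 and 161 CPM, with an overlap of 1 pool in each that TMM scaling removed. The control pools had 153, 168, 176 and 159 CPM, which overlapped the miR-34c mimic pools. The difference was 0.35 (SE 0.16, 95% interval 0.02 to 0.67, edgeR adjusted p = 0.622) for the mimics and 0.41 (SE 0.17, 95% interval 0.05 to 0.77, edgeR adjusted p = 0.842) for the inhibitors. The gene was thus higher with the mimic and with the inhibitor of the same microRNA than with the matched NC RNA, and neither difference passed the adjustment.

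For miR-34c inhibitor against NC inhibitor, all 150 members again had intervals inside 2-fold, beside 50% of all genes. Inside 1.5-fold lay 116 members, beside 11.7% of all genes, and the other 34 missed the bound on the upper side. The median difference was 0.13, from -0.17 to 0.41, with 135 members above 0. On library totals the median was 0.01 and 80 members were above 0. The group means of the TMM factors were 1.01 with miR-34c inhibitors and 1.1 with NC inhibitors, so the balance of signs is again no finding. At an unadjusted p under 0.05 there were 5 members (3.33%), all higher with miR-34c inhibitors, beside 4.06% of all genes, and 0 on library totals. DESeq2 called 0 members at an adjusted p under 0.05 and 0% of all genes. Without NC inhibitor replicate 3 the count inside 1.5-fold was 77. The count of 5 became 8 when miR-34c inhibitor replicate 1 or 3 was left out and 1 when replicate 2 of that group was. It became 2 when NC inhibitor replicate 1 was left out, and 1 when replicate 2 or 3 of that group was.

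Between miR-34c mimic and control, the comparison with the most pools, the most members lay inside 1.5-fold. All 150 members lay inside 2-fold, beside 73.4% of all genes, and all 150 inside 1.5-fold, beside 27.7%. The furthest end of any member's interval was at 1.47-fold, and the median member's at 1.27-fold. The median difference was 0.02, from -0.17 to 0.26. With edgeR 0 members had an unadjusted p under 0.05, beside 1.44% of all genes, and with DESeq2 0 had an adjusted p under 0.05, beside 0% of all genes. Both groups had nearly the same TMM factor, and library totals gave the same median of 0.02.

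ENSBTAG00000007923 differed most between these groups. Its miR-34c mimic pools had 79.2, 96.1, 84.6, 91.7 and 102 CPM, all above the control pools at 71.1, 78.2, 78.4 and 73.5 CPM. The difference was 0.26 (SE 0.14, 95% interval -0.03 to 0.56, edgeR adjusted p = 1). The interval thus included 0 although the pools did not overlap.

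Between miR-34c inhibitor and control, all 150 members had intervals inside 2-fold, beside 53.1% of all genes. Inside 1.5-fold lay 140 members, beside 12.8% of all genes, and the other 10 missed it on the lower side. The median difference was -0.04, from -0.34 to 0.17, with 49 members above 0. On library totals the median was 0.03 and 84 members were above 0. A median near 0 on that scale was fixed by the rule, and another scaling moves all members together, so neither balance of signs is a finding. With edgeR 0 members had an unadjusted p under 0.05, beside 6.75% of all genes. DESeq2 called 0 members at an adjusted p under 0.05, beside 0.0361% of all genes. Without control replicate 1, 8 members had an unadjusted p under 0.05 and 117 lay inside 1.5-fold.

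The member that differed most was ENSBTAG00000011899. It had 95.5, 105 and 118 CPM in the miR-34c inhibitor pools and 112, 129, 137 and 131 CPM in the control pools, so that the groups overlapped by 1 pool in each. The difference was -0.34 (SE 0.17, 95% interval -0.70 to 0.01, edgeR adjusted p = 0.723).

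The NC mimic was compared with control to see what adding an unrelated RNA did. All 150 members lay inside 2-fold, beside 53.9% of all genes, and 137 inside 1.5-fold, beside 12.0%. The other 13 missed the bound on the lower side. The median difference was -0.11, from -0.39 to 0.20, with 31 members above 0, and on library totals -0.04 with 59 above 0. As in the other comparisons, scaling moves all members together, and the balance of signs is no finding. A single member had an unadjusted p under 0.05 (0.667% of the members), beside 8.05% of all genes. DESeq2 called 1 member at an adjusted p under 0.05, beside 0.388% of the genes it adjusted, with a difference of -0.42. Without control replicate 1 the edgeR count was 17 and 94 members lay inside 1.5-fold. The count was 0 without NC mimic replicate 1, 2 without NC mimic replicate 3, 2 without control replicate 3 and 3 without control replicate 4.

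ENSBTAG00000006049 was the member with the unadjusted p under 0.05 in edgeR. The NC mimic pools had 469, 528 and 542 CPM and the control pools 708, 644, 649 and 553 CPM, without overlap. The miR-34c mimic pools lay between 572 and 626 CPM. The difference between NC mimic and control was -0.39 (SE 0.14, 95% interval -0.69 to -0.09, edgeR adjusted p = 0.532).

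In the fit over all groups with TMM, the fewest members lay inside 1.5-fold between NC inhibitor and control. Library totals moved this count most, to 144, which was also the count for miR-34c inhibitor against NC inhibitor on that scale. All 150 members still had intervals inside 2-fold, beside 41.1% of all genes, but 95 had intervals inside 1.5-fold, beside 10.1%. The other 55 missed it on the lower side. The median difference was -0.18, from -0.50 to 0.10, with 10 members above 0 and 140 below. Along the main axis these groups were at opposite ends but for control replicate 1. At an unadjusted p under 0.05 there were 22 members (14.7%), all lower in the NC inhibitor pools, beside 26.7% of all genes. DESeq2 called 15 members at an adjusted p under 0.05, all lower, with differences of -0.51 to -0.33, beside 13.0% of the genes it adjusted.

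On library totals the same comparison gave a median of 0.01 over the members, with 81 above 0 and 69 below. Then 144 members lay inside 1.5-fold and 0 had an unadjusted p under 0.05. The median over all genes was 0.01 with TMM and 0.19 with library totals, a shift of the whole table to which the members' difference is relative. Library totals are the scale on which the members were chosen for a flat share of the counts, so a balanced split and a median near 0 on it were fixed by the rule. The TMM median then follows the group means of the TMM factors, 1.1 in NC inhibitor and 0.96 in control. Neither value is therefore a finding about the members, and which of the scales describes the embryos cannot be told apart with these data. Without control replicate 1 the TMM fit gave 35 members at an unadjusted p under 0.05 and 76 inside 1.5-fold, and without NC inhibitor replicate 3 it gave 6. Without any one of the other 5 pools it gave 9 to 13. Shares of all genes were not computed for these fits. In the fit of all 18 libraries the share at an unadjusted p under 0.05 was 26.7%.

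In the fit with TMM, ENSBTAG00000001962 had the largest difference of any member in any comparison. On library totals the largest was -0.31, between NC mimic and control, beside at most -0.30 between NC inhibitor and control. The NC inhibitor pools had 64.5, 62.7 and 69.3 CPM, all below the control pools at 79.9, 78.6, 88.3 and 76.6 CPM. The other 11 pools lay between 65.1 and 82.6 CPM. The difference was -0.50 (SE 0.15, 95% interval -0.82 to -0.18), and at an edgeR adjusted p of 0.108 it had the smallest adjusted p of the members. In CPM by library totals the means were 65.5 ± 3.43 (SD, n = 3) and 80.9 ± 5.16 (SD, n = 4), and on that scale its unadjusted p was not under 0.05.

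Across the 6 comparisons, 75 members had intervals inside 1.5-fold in every one, and 150 inside 2-fold. An unadjusted p under 0.05 was found in none of them for 122 members, in at least one for 28, and in 2 or more for 4. The same counts across comparisons were not made over all genes, so these are not results about the members. In NC inhibitor against control alone, 26.7% of all genes had an unadjusted p under 0.05 and 10.1% lay inside 1.5-fold. The interval of each gene was computed on its own. When it was widened to hold over all 11082 genes tested at once, 30, 4, 108, 19, 17 and 10 members stayed inside 2-fold in the order of the comparisons above, and 0 stayed inside 1.5-fold in any.

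For each comparison, 150 genes were also chosen by the same rule from the pools of the other 3 groups only. In the fit over all 5 groups their intervals still rest in part on the pools that chose them, since that fit shares its estimate of the spread. These lists shared 82 to 106 genes with the members and rested on 9 to 12 pools. Inside 2-fold lay all 150 genes in 5 comparisons and 149 for NC mimic against control. Inside 1.5-fold lay 113 for miR-34c mimic against NC mimic, 100 for miR-34c inhibitor against NC inhibitor, 149 for miR-34c mimic against control, 126 for miR-34c inhibitor against control, 121 for NC mimic against control and 98 for NC inhibitor against control. Of all genes in this fit, 41.1% to 73.4% lay inside 2-fold, and 14.3%, 11.7%, 27.7%, 12.8%, 12.0% and 10.1% inside 1.5-fold in the same order. An unadjusted p under 0.05 was reached by 15, 5, 0, 2, 10 and 22 of the 150 genes, beside 7.58%, 4.06%, 1.44%, 6.75%, 8.05% and 26.7% of all genes. An adjusted p under 0.05 was reached by 0 of the 150 in each with edgeR. The furthest end of an interval was at 2.13-fold for NC mimic against control and between 1.58-fold and 1.87-fold for the others.

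When these lists were put to a fit of only the 2 groups compared, no pool that chose a gene entered its interval. Inside 2-fold then lay all 150 genes in 4 comparisons, and 149 for miR-34c inhibitor against control and for NC mimic against control. Of all genes in these fits, 42.2% to 78.1% lay inside 2-fold. Inside 1.5-fold lay 103, 46, 132, 44, 85 and 74 genes in the order above, beside 16.9%, 5.23%, 23.5%, 2.59%, 11.8% and 9.65% of all genes. The counts were lowest in both comparisons with the miR-34c inhibitor pools, which differed most among themselves. An unadjusted p under 0.05 was reached by 4, 0, 0, 0, 9 and 15 of the 150 genes in the same order, beside 8.41%, 2.51%, 0.80%, 2.71%, 9.85% and 32.4% of all genes in these fits. In each comparison fewer of these genes lay inside 1.5-fold than in the fit over all 5 groups.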

How the data were processed

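The deposited table holds estimated counts per Ensembl gene for the 18 libraries, which the authors made with RSEM and left unnormalised. All values were whole numbers. The submitters' processing notes name FastQC 0.11.9, cutadapt 3.7, STAR 2.7.10a, UMI-tools 1.1.4, RSEM 1.3.3 and the build ARS-UCD1.2, without order or settings, and the annotation release of this table is not given in the sources used here, since the study's methods name one for its small RNA data only. Genes with near-identical copies may share reads, and their values are uncertain.

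The members and all lists were chosen with earlier results of these data known. CPM used library totals, with 1 CPM added before log2. Counting SDs were summed from Poisson probabilities. Differences were fitted in R 4.3.3 with edgeR 4.0.16 (limma 3.58.1; TMM, filterByExpr by group, glmQLFit and glmQLFTest) over 11082 genes and 5 groups without covariates, with Benjamini-Hochberg adjustment over all of them. The 95% interval is the estimate plus or minus the t quantile times the estimate over the root of F. DESeq2 1.42.0 was run beside it, and genes it left unadjusted were not counted. The steps were tested on simulated data. The labels give separate pools. The study's methods describe the cultures of embryos that were stained, in 4 replicates, and do not tie the sequenced pools to cultures, so p-values measure the spread between pools, which may be technical.

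Genes were named by rule: the 5 of lowest SD, the 2 highest and 2 lowest in mean CPM, the nearest inside and outside the limit, and the largest difference in each comparison. Alternatives were other scalings, filters, floors and measures of spread, DESeq2, a fit of 2 groups, a replicate block and each library left out. The 1.5-fold bound, the widened interval and the fit of 2 groups to genes chosen from the other 3 were added after the data were seen. Planned gene lists and lineage markers were not applied, since 0 of 37063 RefSeq entries carried an Ensembl identifier.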

Additional observations from a re-analysis of the deposited data

Results flagged for a closer look

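One value stood apart from its group. ENSBTAG00000020905, the most abundant member, had 1363 CPM in miR-34c mimic replicate 2, against 1060.1 to 1145 CPM in the other 4 miR-34c mimic pools. Its gap to the nearest pool was 0.72 of the whole range of the group. After TMM scaling it was at 1318 against 1113 to 1268 in the others, and no longer stood apart. This was 1 of 36 checks, made in the control and miR-34c mimic groups over the 15 named genes and 3 measures of each library, and chance sets apart about 1 in 20 groups.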

How the results depend on the processing

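Of 389 alternative values, 299 stayed within 1.5 times the reported count or within the spread of the members' SDs (0.02), and 90 moved. The cause was not tested. The count of members inside 2-fold was 150 in 101 of 110 alternatives, 149 in 3 that used genes chosen from the other 3 groups and 108 with the widened interval for miR-34c mimic against control, and fell to 30, 4, 19, 17 and 10 with the widened interval for miR-34c mimic against NC mimic, miR-34c inhibitor against NC inhibitor, miR-34c inhibitor against control, NC mimic against control and NC inhibitor against control. Inside 1.5-fold the widened interval left 0 members in each of the 6 comparisons, a fit of only the 2 groups left 59 for miR-34c inhibitor against NC inhibitor and 65 for miR-34c inhibitor against control, the same fit of genes chosen from the other 3 groups left 46, 44 and, for NC mimic against control, 85, and library totals gave 144 for NC inhibitor against control. Depth limits genes near 50 CPM most, where counting gives an SD of up to 0.12.

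Counts of members at an unadjusted p under 0.05 moved as follows. Shares of all genes at this p were computed only for the reported fit over all groups and for the fits of 2 groups. The other counts are therefore not results about the members. For miR-34c mimic against NC mimic there were 10 with median-of-ratios factors, 25 with DESeq2, 15 among genes chosen from the other 3 groups, and 0 with library totals, no filter, the 2 groups alone or a replicate block. For miR-34c inhibitor against NC inhibitor there were 0 with library totals, no filter or 2 groups, the latter also with genes from the other 3 groups, 2 with at least 10 counts in every library or a replicate block, and 12 with DESeq2. DESeq2 gave 1 for miR-34c mimic against control and 8 for miR-34c inhibitor against control, where the filter of 10 counts and the genes from the other 3 groups each gave 2. For NC mimic against control there were 4 with median-of-ratios factors, 0 with no filter, 2 with the filter of 10 counts, 12 with DESeq2, 10 among genes from the other 3 groups and 9 among these with 2 groups. For NC inhibitor against control there were 0 with library totals, 4 with no filter, 44 with DESeq2, 14 with 2 groups and 7 with a replicate block.

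Pairing by replicate number was looked at in the members only. Over 31 same-numbered pairs their deviations from the group means had a median correlation of -0.04 (from -0.37 to 0.29, 9 above 0.1). Low spread between pools chose these genes, so the values cannot show whether replicate numbers pair the pools. The replicate block is given only as a check.

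With single libraries left out, counts at an unadjusted p under 0.05 ran from 0 to 10, 1 to 8, 0 to 0, 0 to 8, 0 to 17 and 6 to 35 in the order of the report, counts inside 1.5-fold from 98 to 122, 77 to 131, 148 to 150, 114 to 136, 94 to 120 and 68 to 98, and those inside 2-fold stayed at 150. The list shared 125 to 141 genes, its median SD was 0.136 to 0.142, and the deviation of the library left out was 0.118 to 0.255. Other lists shared 67 (TMM), 65 (median-of-ratios), 64 (chi-square as measure) and 89 (median absolute deviation) members, and the members' median SD was 0.166 with TMM and 0.169 with median-of-ratios factors.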

Other observations

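The measure of steadiness decided which levels were favoured. When genes were ranked by the chi-square per degree of freedom in place of the SD, the list shared 64 genes with the members, its median level was 63.5 CPM against 155 CPM for the members, and its median SD was 0.17 on the log2 scale. With a floor of 100 CPM 102 members remained on the list, with a floor of 20 CPM 130, with the 50 most abundant genes kept 144, and with 0.1 CPM added in place of 1 CPM 147.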
